A study of Mus musculus with 18 samples.

Results

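Red pulp macrophages of the mouse spleen were set against bone marrow monocytes, the cell type from which many tissue macrophages can be replenished. The members were taken by their labels, as the 2 spleen libraries and the 2 monocyte libraries of 1 experiment, and were 4 of the 18 libraries of the series. The spleen cells were labelled spleen red pulp macrophages and the other cells monocytes of the bone marrow, all from C57BL/6 mice. No treatment or genetic change was given for either group, and the labels name neither the surface markers of the sort nor the number of animals. The series as a whole profiled messenger RNA of 9 sorted cell populations, 2 libraries each, by poly(A) capture, pooled reverse transcription of indexed samples and linear amplification. Reads falling in genes, recovered from the step size of the deposited values, numbered 849746 and 588858 in the spleen libraries, against 953248 and 1108693 in the monocyte libraries. A count of 3 reads, the limit that a listed value of 0 allows, was worth 2.99 and 4.38 normalised reads in the spleen libraries, against 2.56 and 2.30 in the monocyte libraries, and covers counting error only. The libraries of a group ranked 12014 genes alike, with a Spearman correlation of 0.923 between the spleen libraries and 0.949 between the monocyte libraries, while the 4 correlations across the groups lay between 0.748 and 0.769. Each correlation runs over genes, and genes do not replicate one another. Nothing in the labels says that 2 libraries of a group came from separate animals, so the spread between libraries may be technical. The p-values rest on that spread pooled over all 9 populations, not on these 4 libraries alone.

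Red pulp macrophages lie along the venous sinuses of the spleen, where they take up aged and damaged red blood cells. Haemoglobin is digested in their phagolysosomes, heme is opened by heme oxygenase to biliverdin, carbon monoxide and iron, and the iron is stored in ferritin or released through ferroportin to transferrin in plasma. Their development needs SPI-C, an ETS-family transcription factor related to PU.1 whose gene is induced by heme. Classical monocytes leave the marrow by way of the chemokine receptor CCR2, carry Ly6C, and hold the granule enzymes and oxidase of a young myeloid cell.

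The promoter windows of 4 genes are shown because these genes carry the main contrasts described here: Spic as the regulator, C1qb and C1qc as neighbours that moved together, and Ly6c2 as the surface marker of the monocytes. Each runs 5′ to 3′ on the gene's own strand, from 250 bases before to 50 bases after the annotated start, and comes from RefSeq with coordinates in GRCm38.p6. Capitals mark GGAAGT, a core recognised by PU.1 and other ETS factors, on either strand (ACTTCC on the other one). The Spic window lay at chr10:88682974-88683273 on the minus strand, the C1qb window at chr4:136886151-136886450 and the C1qc window at chr4:136892865-136893164, both on the minus strand, and the Ly6c2 window at chr15:75111922-75112221 on the minus strand.
Spic: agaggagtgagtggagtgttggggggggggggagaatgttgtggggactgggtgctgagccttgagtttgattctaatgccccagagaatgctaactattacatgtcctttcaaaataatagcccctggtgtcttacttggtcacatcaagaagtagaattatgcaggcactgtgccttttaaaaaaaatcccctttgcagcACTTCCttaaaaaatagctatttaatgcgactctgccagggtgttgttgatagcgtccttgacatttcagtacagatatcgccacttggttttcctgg
C1qb: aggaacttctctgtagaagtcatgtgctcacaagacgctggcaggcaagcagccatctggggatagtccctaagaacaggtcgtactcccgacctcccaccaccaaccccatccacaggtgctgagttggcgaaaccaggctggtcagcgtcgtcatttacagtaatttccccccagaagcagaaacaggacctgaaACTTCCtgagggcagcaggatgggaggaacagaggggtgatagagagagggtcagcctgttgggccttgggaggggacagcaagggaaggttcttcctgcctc
C1qc: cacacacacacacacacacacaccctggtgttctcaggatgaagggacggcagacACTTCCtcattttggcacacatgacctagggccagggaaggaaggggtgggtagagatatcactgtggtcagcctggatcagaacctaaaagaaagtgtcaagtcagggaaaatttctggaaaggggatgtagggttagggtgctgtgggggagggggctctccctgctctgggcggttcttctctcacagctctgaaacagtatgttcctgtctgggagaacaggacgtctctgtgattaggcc
Ly6c2: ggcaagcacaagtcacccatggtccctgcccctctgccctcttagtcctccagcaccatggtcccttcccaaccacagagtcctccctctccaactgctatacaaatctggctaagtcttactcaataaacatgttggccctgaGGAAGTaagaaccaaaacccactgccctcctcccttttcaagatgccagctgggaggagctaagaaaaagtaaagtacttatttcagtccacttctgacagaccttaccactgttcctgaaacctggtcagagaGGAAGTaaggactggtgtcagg
The Spic window held the letters 1 time, 48 bases before the start, and the Ly6c2 window held them 2 times. The motif was picked after the sequences were seen, and a match is a description, not a binding site. It occurred in 25.2% of the windows of genes that rose in spleen macrophages and 32.2% of those of genes that fell, against 29.9% of the windows of tested genes and 24.1% of all windows.

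Spleen macrophages differed from monocytes in many genes and in both directions, with the macrophage markers, heme and iron genes, complement and liver X receptor genes higher and the monocyte markers and granule enzymes lower. Of 12014 genes tested, 1369 rose (11.4%) and 908 fell (7.56%) in spleen macrophages, so that 19.0% of genes were called. The call asked for an adjusted p under 0.05 in limma, with Benjamini-Hochberg adjustment over all genes tested, and for a log2 fold change of 1 or more in either direction. Fold changes are spleen minus monocytes on the scale of log2(normalised reads + 1.11), which understates the change of low genes, and each is given with its standard error. The spleen libraries lay wholly above or below the monocyte libraries in 7263 of the 12014 genes (60.5%), and in all 2277 called genes, where the call itself makes overlap unlikely. At 0 in both monocyte libraries were 245 of the genes that rose, and 87 of those that fell were at 0 in both spleen libraries. For such genes no fold is given. The median log2 fold change over all genes was 0.06. When all libraries were forced to 1 distribution by quantile normalization, that median moved by -0.12 and the share of called genes that rose became 51.2% in place of 60.1%, so changes of that size are not read as directions below. Counts of called genes rest on few libraries, and leaving out monocytes replicate 1, monocytes replicate 2 or spleen replicate 2 gave 1473, 1425 and 1429 in place of 2277.

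**Figure D1:**
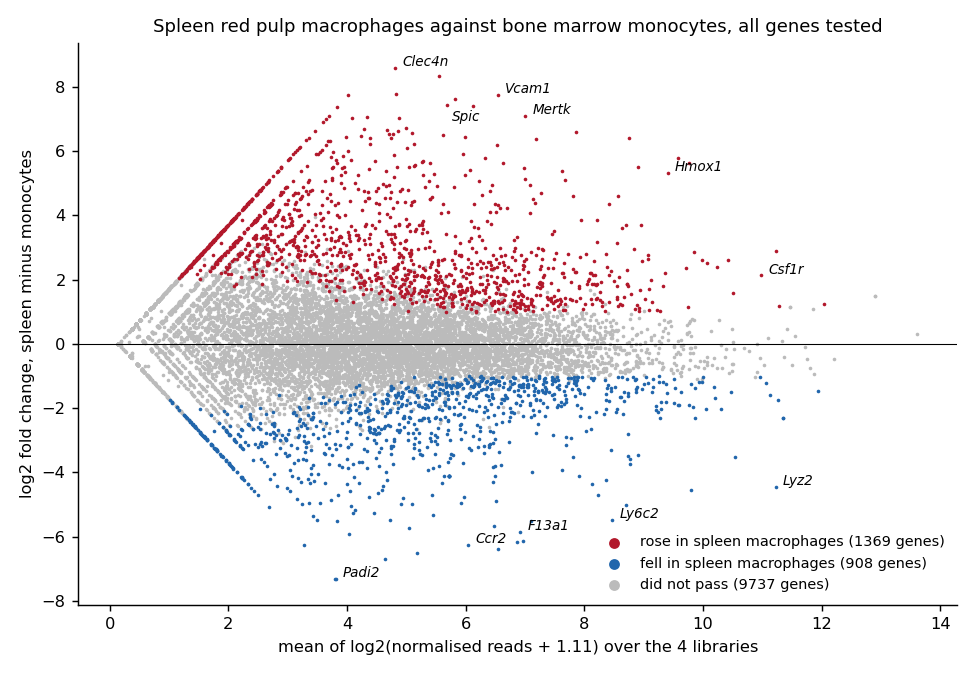
Each point is 1 of 12014 tested genes; the horizontal axis is the mean of log2(normalised reads + 1.11) over the 4 libraries and the vertical axis the log2 fold change, spleen minus monocytes. Red points are the 1369 genes that rose in spleen macrophages, blue points the 908 that fell, and grey points did not pass; Vcam1 and Spic stand near the top and Ccr2 and Padi2 near the bottom.

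The defining markers followed the labels. All 10 of the red pulp markers chosen for this check rose in spleen macrophages and all 7 monocyte markers fell. Vcam1, an adhesion molecule of red pulp macrophages, had 1571 and 1183 normalised reads in spleen macrophages, against 5.97 and 4.60 in monocytes, a log2 fold change of 7.75 ± 0.49 (limma, adjusted p = 5.6e-09). Spic had 692 and 651 in spleen macrophages, against 2.56 and 3.07 in monocytes (7.43 ± 0.69, limma, adjusted p = 4.33e-07). For both genes the lower spleen library was far above the higher monocyte library. Ly6c2, which encodes the surface protein Ly6C, had 36.9 and 73.8 normalised reads in spleen macrophages, against 2085 and 2684 in monocytes (-5.47 ± 0.48, limma, adjusted p = 1.99e-07). Reads of Ly6c2 and its close copy Ly6c1 may be split between the 2 genes, so its level is uncertain. Ccr2 had 6.98 and 5.84 in spleen macrophages, against 609 and 539 in monocytes (-6.26 ± 0.49, limma, adjusted p = 5.58e-08). F13a1, coagulation factor XIII subunit A, had 14.9 and 14.6 in spleen macrophages, against 982 and 857 in monocytes.

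The remaining markers moved the same way but not equally. Adgre1, which encodes the F4/80 antigen used to recognise macrophages, had 470 and 390 normalised reads in spleen macrophages, against 130 and 95.1 in monocytes (1.94 ± 0.33, limma, adjusted p = 0.000278). This was the smallest log2 fold change of the 10 red pulp markers. Siglec1, the sialic acid receptor CD169 of metallophilic and other macrophages, was low, with 24.9 and 16.1 in spleen macrophages, against 1.70 and 1.53 in monocytes (2.96 ± 0.99, limma, adjusted p = 0.041). Its call was lost without any 1 of the 4 libraries (limma, adjusted p 0.113 to 0.189). Cx3cr1, the fractalkine receptor, had 63.1 and 153 in spleen macrophages, against 423 and 250 in monocytes (-1.71 ± 0.53, limma, adjusted p = 0.0279). It did not pass without spleen replicate 1 (adjusted p = 0.303) or without monocytes replicate 1 (adjusted p = 0.228), or within experiment 2 alone (adjusted p = 0.179). Of a longer list of 20 red pulp markers, 20 rose, with a median of 5.57, and of 18 monocyte markers 16 fell, 1 rose and 1 did not pass, with a median of -3.69. Csf1r, the receptor for the macrophage growth factor CSF1, was the monocyte-list member that rose, with 4431 and 4042 in spleen macrophages, against 992 and 940 in monocytes (2.13 ± 0.25, limma, adjusted p = 7.01e-06). The lists and the markers were chosen with results of these libraries known and are no independent evidence of direction.

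**Figure D2:**
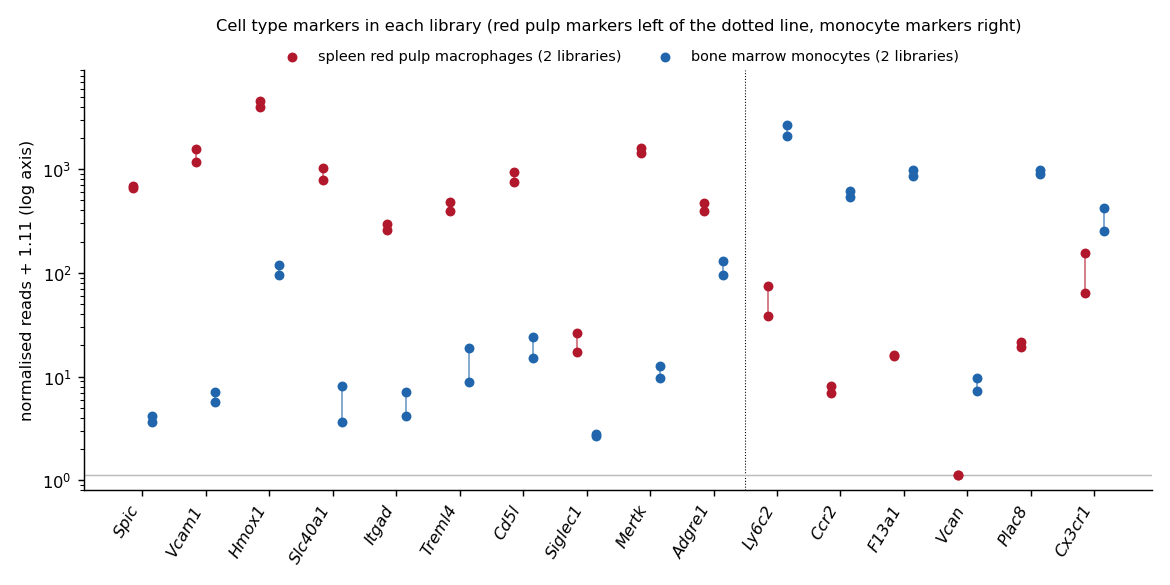
Normalised reads plus 1.11 on a log axis for 10 red pulp markers and 6 of the 7 monocyte markers; red points are the 2 spleen libraries, blue points the 2 monocyte libraries, joined by a line within each group, and the grey line marks a value of 0. No gene shows overlap between the groups, the gap being narrowest for Cx3cr1, at 153 against 250, and Adgre1, at 390 against 130.

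Genes with the largest differences included several outside the textbook marker sets. Clec4n, which encodes dectin-2, a C-type lectin that binds fungal mannans, had the highest fold change of the named genes that rose, with 536 and 561 normalised reads in spleen macrophages, against 0 and 0.767 in monocytes (8.58 ± 0.49, limma, adjusted p = 1.56e-09). Asb2, which encodes a substrate-binding subunit of a ubiquitin ligase, had 877 and 802 in spleen macrophages, against 5.11 and 0 in monocytes (8.32 ± 0.67, limma, adjusted p = 6.88e-08). Gfra2, a co-receptor for the growth factor neurturin, had 427 and 409 in spleen macrophages, against 0.852 and 0.767 in monocytes. In each of these genes the monocyte values were worth a few reads at most. Pcolce2, which encodes an enhancer of procollagen processing, had 208 and 261 normalised reads in spleen macrophages and was listed at 0 in both monocyte libraries (limma, adjusted p = 8.73e-08). C6, a component of the membrane attack complex of complement, had 195 and 169 in spleen macrophages and Sned1, an extracellular matrix glycoprotein, 132 and 171, and both were listed at 0 in both monocyte libraries. Mrap, an accessory protein of the melanocortin 2 receptor, had 152 and 127 in spleen macrophages and was likewise listed at 0 in monocytes. Ptgis, prostacyclin synthase, had 197 and 188 in spleen macrophages, against 0.852 and 0 in monocytes (7.04 ± 1.00, limma, adjusted p = 5.35e-05). Cd81, a tetraspanin, had 281 and 393 in spleen macrophages, against 0.852 and 2.30 in monocytes (7.01 ± 0.35, limma, adjusted p = 2.83e-10).

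Several genes were near or at 0 in spleen macrophages and well above it in monocytes. Padi2, a peptidylarginine deiminase, was listed at 0 in both spleen libraries and had 186 and 167 normalised reads in monocytes (limma, adjusted p = 5.53e-06). Serpinb10, an intracellular serpin, was also listed at 0 in both spleen libraries, with 160 and 192 in monocytes, as was Galnt9, a glycosyltransferase that starts O-linked glycans, with 98.0 and 70.6 in monocytes. Fn1, fibronectin, had 8.97 and 17.5 in spleen macrophages, against 1123 and 868 in monocytes (-6.17 ± 0.43, limma, adjusted p = 1.55e-08). S100a4, a calcium-binding protein of motile cells, had 10.96 and 17.5 in spleen macrophages, against 1156 and 959 in monocytes (-6.13 ± 0.48, limma, adjusted p = 5.46e-08). Ccl9, a CC chemokine of myeloid cells, had 4.98 and 16.1 in spleen macrophages, against 782 and 930 in monocytes. Sema4a, a semaphorin, had 0 and 4.38 in spleen macrophages, against 246 and 261 in monocytes. Across these 7 genes no spleen value was above 17.5 normalised reads.

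Heme and iron genes rose at several steps, from uptake to export. Of the 27 members of this list, 14 rose, 2 fell and 11 did not pass, with a median of 1.39 against 0.06 over all genes. With the libraries of experiment 2 alone, 10 rose and 2 fell. The calls lost there were those of Cp, Ncoa4, Ftl1 and Fth1 (limma, adjusted p 0.0569 to 0.128). Under quantile normalization 12 rose and 2 fell, and the calls of Cp and Ncoa4 were lost (limma, adjusted p = 0.0752 and 0.0601). When 1 of the 4 libraries was left out, the list median lay between 1.21 and 1.64. Cd163, the receptor for haptoglobin-bound haemoglobin, had 338 and 228 normalised reads in spleen macrophages, against 7.67 and 4.60 in monocytes (5.30 ± 0.73, limma, adjusted p = 3.63e-05). Hmox1, inducible heme oxygenase, had 4000 and 4594 in spleen macrophages, against 118 and 95.1 in monocytes (5.32 ± 0.36, limma, adjusted p = 1.19e-08). Hmox2, the constitutive enzyme, had 236 and 168 in spleen macrophages, against 109 and 210 in monocytes, and did not pass (0.39 ± 0.36, limma, adjusted p = 0.516). The inducible enzyme separated the groups completely, whereas the constitutive one overlapped. Blvrb, which reduces biliverdin, had 1260 and 992 in spleen macrophages, against 116 and 135 in monocytes (3.15 ± 0.39, limma, adjusted p = 1.28e-05). The heme transporter of the phagolysosome, Slc48a1, had 351 and 413 in spleen macrophages, against 79.3 and 66.7 in monocytes, with a log2 fold change of 2.37. The phagosomal metal transporter Slc11a1, known as NRAMP1, had 1485 and 1340 in spleen macrophages, against 217 and 194 in monocytes, with a log2 fold change of 2.78. Except for Hmox2, each of these genes lay apart in the groups, as did 60.5% of all genes tested.

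Iron export and storage rose to very different degrees. Slc40a1, ferroportin, the iron exporter, had 1037 and 793 normalised reads in spleen macrophages, against 2.56 and 6.90 in monocytes (7.39 ± 0.60, limma, adjusted p = 8.16e-08). Trf, transferrin, the plasma iron carrier, had 1730 and 1827 in spleen macrophages, against 137 and 135 in monocytes (3.70 ± 0.33, limma, adjusted p = 2.52e-07). Hfe, which takes part in sensing transferrin iron, had 184 and 168 in spleen macrophages, against 23.9 and 15.3 in monocytes (3.13 ± 0.50, limma, adjusted p = 0.000171). Ferritin changed less than the exporter. The light chain Ftl1 had 5338 and 7824 in spleen macrophages, against 2296 and 3248 in monocytes, a log2 fold change of 1.24, and the heavy chain Fth1 had 3949 and 3587 in spleen macrophages, against 1434 and 1939 in monocytes, a log2 fold change of 1.17. Neither ferritin call was firm: that of Ftl1 was lost without monocytes replicate 1 or spleen replicate 2 (limma, adjusted p = 0.159 and 0.178), and that of Fth1 without monocytes replicate 1, spleen replicate 1 or spleen replicate 2 (limma, adjusted p 0.0670 to 0.152). The 2 members that fell were Nfe2l2, encoding NRF2, a transcription factor that can induce Hmox1 and ferritin genes, and Pcbp2, encoding a cytosolic iron chaperone. Nfe2l2 had 12.96 and 13.15 in spleen macrophages, against 41.8 and 48.3 in monocytes (-1.70 ± 0.39, limma, adjusted p = 0.00416). Pcbp2 had 245 and 197 in spleen macrophages, against 462 and 509 in monocytes (-1.14 ± 0.24, limma, adjusted p = 0.00238), and without spleen replicate 2 its log2 fold change, -0.98, was short of the fold asked for.

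Most markers of red blood cell precursors were also higher in spleen macrophages. Of 13 erythroid markers tested, 9 rose, 0 fell and 4 did not pass, with a median of 2.88, and 3 to 6 rose when 1 of the 4 libraries was left out, the lowest without monocytes replicate 1. Summed over 14 listed markers, they gave 16245 and 11887 normalised reads in spleen macrophages, against 3778 and 6258 in monocytes, almost all of it from Hba-a1, alpha globin. Hba-a1 itself had 15031 and 10862 in spleen macrophages, against 3548 and 5909 in monocytes, and did not pass (1.48 ± 0.84, limma, adjusted p = 0.249); its values are identical to those of another gene in the table, so its reads cannot be assigned to 1 copy. Without it the sum was 1213 and 1026 in spleen macrophages, against 229 and 349 in monocytes. Klf1, the erythroid Krüppel-like factor, had 48.8 and 30.7 in spleen macrophages, against 1.70 and 3.84 in monocytes (3.42 ± 0.80, limma, adjusted p = 0.00484), a call lost without monocytes replicate 1 (adjusted p = 0.0615). Tal1, a transcription factor of blood stem and red cells, had 28.9 and 20.5 in spleen macrophages, against 0.852 and 0 in monocytes (4.11 ± 0.65, limma, adjusted p = 0.000169). None of the erythroid markers was at 0 in both spleen libraries or in both monocyte libraries. Fewer cells of a type and less RNA per cell cannot be told apart in these bulk samples, and the part of erythroid RNA in the heme and iron values was not tested. In Kupffer cells of the same experiment the erythroid sum was 8336 and 4326 normalised reads with Hba-a1, and 53.0 and 98.9 without it.

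**Figure D3:**
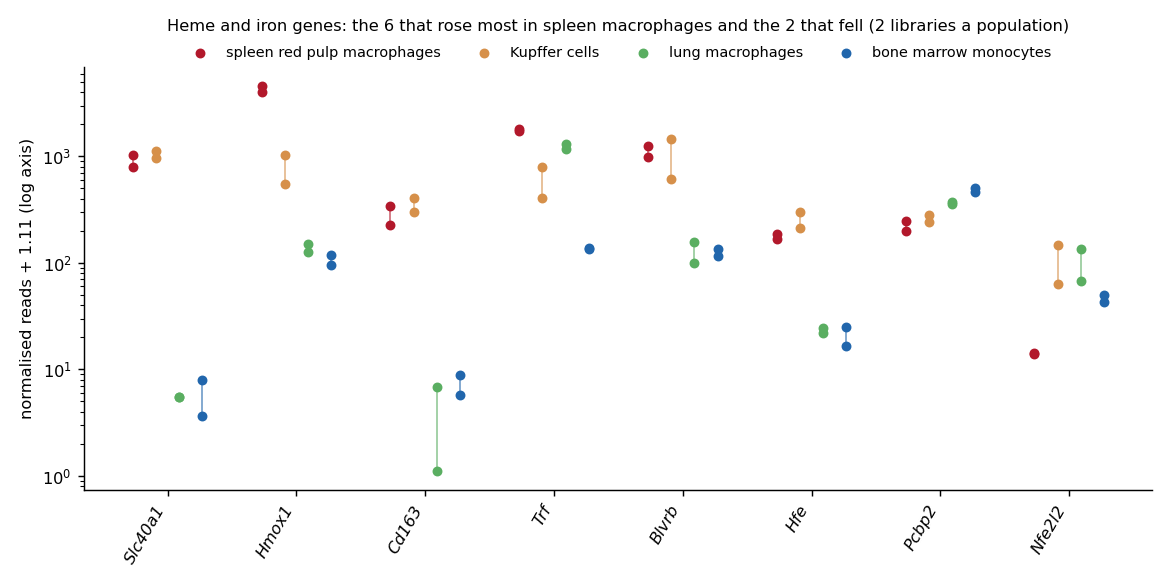
Normalised reads plus 1.11 on a log axis for the 6 heme and iron genes with the largest rise in spleen macrophages and the 2 that fell, in spleen (red), Kupffer (orange), lung (green) and monocyte (blue) libraries, 2 points each. Slc40a1, Cd163 and Hfe stand at similar heights in spleen and Kupffer libraries, Hmox1 is highest in spleen, and Nfe2l2 is lowest there, at 12.96 and 13.15.

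Receptors and bridging molecules for dying cells were mostly higher in spleen macrophages. Of 26 genes for the uptake of apoptotic and aged cells, 15 rose, 2 fell and 9 did not pass, the fall of Itgb3 being lost without any 1 of the 4 libraries (limma, adjusted p 0.0836 to 0.160), with a median of 2.95, or 2.33 with members at 0 in 1 group set at their bound. Mertk, a receptor tyrosine kinase that recognises phosphatidylserine through bridging proteins, had 1422 and 1592 normalised reads in spleen macrophages, against 8.52 and 11.5 in monocytes (7.09 ± 0.36, limma, adjusted p = 2.83e-10). Its relative Axl rose as well, with a log2 fold change of 4.61. Stab2, a scavenger receptor of sinusoidal endothelium that also binds phosphatidylserine, had 412 and 533 in spleen macrophages, against 2.56 and 6.14 in monocytes (6.51 ± 0.96, limma, adjusted p = 8.28e-05). Mrc1, the mannose receptor, had 319 and 234 in spleen macrophages, against 2.56 and 6.90 in monocytes (5.66 ± 0.71, limma, adjusted p = 1.38e-05). Timd4, a phosphatidylserine receptor, had a log2 fold change of 4.85. The receptor that restrains engulfment, Sirpa, rose by 2.80 on the log2 scale, while the gene for its ligand Cd47 had 347 and 310 in spleen macrophages, against 259 and 330 in monocytes, and did not pass (0.16 ± 0.24, limma, adjusted p = 0.713). Scavenger receptors did not move as a block. Marco rose by 3.24 on the log2 scale, whereas Msr1, scavenger receptor A, had 18.9 and 14.6 in spleen macrophages, against 65.6 and 58.3 in monocytes (-1.83 ± 0.37, limma, adjusted p = 0.00136), and Cd36 had 8.97 and 17.5 in spleen macrophages, against 5.97 and 6.90 in monocytes, and did not pass (0.86 ± 0.70, limma, adjusted p = 0.452).

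Summed endothelium and stroma markers, a list that holds Stab2, gave 455 and 643 normalised reads in spleen macrophages, against 9.38 and 9.97 in monocytes. Of 10 tested, 3 rose and 7 did not pass, with 1 rising without monocytes replicate 2 or spleen replicate 2. Apart from Stab2, Kdr, a vascular growth factor receptor, had 2.99 and 17.5 in spleen macrophages and was listed at 0 in monocytes, and Tie1, an endothelial receptor, was listed at 0 in all 4 libraries. The calls of Kdr and Col1a2, a collagen gene, were each lost without spleen replicate 2 (limma, adjusted p = 0.194 and 0.338) and without monocytes replicate 2 (0.0647 and 0.356), and Kdr also without monocytes replicate 1 (0.0618). Col1a2 had 9.97 and 62.8 in the spleen libraries, against 5.97 and 0 in monocytes. The called share of this list was 30%, against 19.0% of all genes tested. The part of endothelial RNA in the Stab2 value was not tested.

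Lysosomal genes split within the list rather than rising together. Of 33 genes for hydrolases and the proton pump, 10 rose, 3 fell and 20 did not pass, with a median of 0.17, and 6 rose without monocytes replicate 2. Lgmn, legumain, an asparaginyl endopeptidase, had 576 and 758 normalised reads in spleen macrophages, against 36.7 and 25.3 in monocytes (4.39 ± 0.28, limma, adjusted p = 5.84e-09). Ctsd, cathepsin D, had 2286 and 2727 in spleen macrophages, against 392 and 433 in monocytes (2.60 ± 0.33, limma, adjusted p = 1.44e-05). These 2 proteases stood well apart in the groups. Ctss, cathepsin S, had 552 and 630 in spleen macrophages, against 1001 and 884 in monocytes, and did not pass (-0.67 ± 0.33, limma, adjusted p = 0.178). Psap, prosaposin, had 1082 and 1765 in spleen macrophages, against 1603 and 1502 in monocytes, so that the groups overlapped. Lamp2, a major lysosomal membrane protein, had 21.9 and 29.2 in spleen macrophages, against 93.3 and 117 in monocytes (-2.001 ± 0.35, limma, adjusted p = 0.000405). A subunit of the proton pump's membrane sector, Atp6v0a1, rose by 2.00 on the log2 scale, while Atp6v1b2 of the catalytic sector fell by 1.31, a call that was lost without any 1 of the 4 libraries (limma, adjusted p 0.0553 to 0.0697).

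Most genes of cholesterol export and its regulation were higher in spleen macrophages. Of 14 genes for cholesterol efflux and targets of the liver X receptors, 9 rose, 0 fell and 5 did not pass, with a median of 1.66. Nr1h3, liver X receptor alpha, had 736 and 783 normalised reads in spleen macrophages, against 23.0 and 18.4 in monocytes (5.13 ± 0.65, limma, adjusted p = 1.55e-05). Its close relative Nr1h2, liver X receptor beta, had 237 and 244 in spleen macrophages, against 206 and 227 in monocytes, and did not pass (0.15 ± 0.28, limma, adjusted p = 0.787). A similar pair was seen in their partner receptors, since Rxra had 713 and 684 in spleen macrophages, against 115 and 117 in monocytes (2.58 ± 0.27, limma, adjusted p = 1.51e-06), and Rxrb had 127 and 136 in spleen macrophages, against 97.2 and 108 in monocytes, and did not pass (0.35 ± 0.35, limma, adjusted p = 0.56). Among the targets, the cholesterol exporter Abca1 had 28.9 and 20.5 in spleen macrophages, against 0.852 and 0 in monocytes, and the exporter Abcg1 had 173 and 216 in spleen macrophages, against 39.2 and 36.8 in monocytes (2.32 ± 0.35, limma, adjusted p = 9.93e-05). Apoe, the lipid acceptor apolipoprotein E, had 2828 and 4071 in spleen macrophages, against 693 and 453 in monocytes (2.60 ± 0.36, limma, adjusted p = 3.67e-05). Srebf1, a regulator of fatty acid synthesis, had 137 and 177 in spleen macrophages, against 59.7 and 56.8 in monocytes, and did not pass (1.40 ± 0.52, limma, adjusted p = 0.0674).

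Complement showed gains at the start of the classical pathway and a loss of C3. Of 19 complement genes, 11 rose, 3 fell and 5 did not pass, with a median of 2.40. C1qa had 5149 and 6204 normalised reads in spleen macrophages, against 137 and 76.7 in monocytes (5.77 ± 0.44, limma, adjusted p = 5.13e-08). C1qb had 6428 and 5759 in spleen macrophages, against 140 and 107 in monocytes (5.62 ± 0.41, limma, adjusted p = 2.4e-08). C1qc had 3347 and 3157 in spleen macrophages, against 110 and 44.5 in monocytes (5.51 ± 0.43, limma, adjusted p = 5.58e-08). The 3 chains of C1q, the recognition unit that can bind apoptotic cells, thus had fold changes within 1 standard error of each other. C2, a protease of the classical convertase, had 75.7 and 83.3 in spleen macrophages, against 3.41 and 0 in monocytes (5.17 ± 0.81, limma, adjusted p = 0.000146). In contrast C3, on which the pathways converge, had 94.7 and 110 in spleen macrophages, against 618 and 721 in monocytes (-2.70 ± 0.43, limma, adjusted p = 0.000184). Vsig4, a complement receptor of Kupffer cells, had 0 and 2.92 in spleen macrophages, against 0 and 0.767 in monocytes, values at or under the limit of 3 reads.

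The complement receptors among the beta 2 integrins differed in their alpha chains. Itgam, the alpha chain of CD11b/CD18 (complement receptor 3), had 12.0 and 8.76 normalised reads in spleen macrophages, against 128 and 89.0 in monocytes (-3.25 ± 0.43, limma, adjusted p = 2.66e-05). Itgad, the alpha D chain, had 260 and 295 in spleen macrophages, against 5.97 and 3.07 in monocytes (5.68 ± 0.74, limma, adjusted p = 2.04e-05). Itgax, the alpha X chain CD11c, had 31.9 and 61.4 in spleen macrophages, against 0 and 2.30 in monocytes (4.55 ± 0.59, limma, adjusted p = 1.94e-05; 0.0559 with the spread of the 4 libraries alone). Their shared beta chain Itgb2 had 377 and 365 in spleen macrophages, against 498 and 435 in monocytes, and did not pass (-0.33 ± 0.23, limma, adjusted p = 0.379). The alpha chain calls went in both directions, and the beta chain values lay close together, though also without overlap. The alpha 4 chain and one of its partners were both lower, since Itga4 fell by 2.53 on the log2 scale and Itgb7 had 12.0 and 20.5 in spleen macrophages, against 471 and 533 in monocytes (-4.90 ± 0.44, limma, adjusted p = 2.93e-07). Itgb1, the alternative beta chain, had 106 and 114 in spleen macrophages, against 88.7 and 56.0 in monocytes, and did not pass (0.63 ± 0.34, limma, adjusted p = 0.216). Vcam1, the ligand of alpha 4 integrins, was the adhesion gene with the largest rise, as given above.

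Over the whole list of 28 adhesion and trafficking receptors, 10 rose, 10 fell and 8 did not pass, with a median of -0.47. That median was 0.10 without spleen replicate 1 and -0.58 without monocytes replicate 2, so no direction is read from it. Chemokine receptors went both ways. Ccr1 had 0 and 1.46 normalised reads in spleen macrophages, against 53.7 and 50.6 in monocytes (-4.98 ± 0.53, limma, adjusted p = 2.37e-06), and Cxcr4, the receptor that holds cells in the marrow, had 2.99 and 4.38 in spleen macrophages, against 32.4 and 49.1 in monocytes (-3.11 ± 0.63, limma, adjusted p = 0.00143). Ccr3, the eotaxin receptor, had 92.7 and 61.4 in spleen macrophages and was listed at 0 in both monocyte libraries (limma, adjusted p = 8.47e-07). Fpr1, a receptor for bacterial formyl peptides, had 95.7 and 70.1 in spleen macrophages, against 0.852 and 3.07 in monocytes (4.86 ± 0.49, limma, adjusted p = 1.07e-06). The alpha 9 integrin gene Itga9 had 184 and 200 in spleen macrophages, against 4.26 and 2.30 in monocytes (5.50 ± 0.57, limma, adjusted p = 1.68e-06).

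Several transcription factors known from resident macrophages rose and several known from younger myeloid cells fell. Of 50 lineage factors tested, 13 rose, 9 fell and 28 did not pass, with a median of 0.24, or 0.00 with members at 0 in 1 group set at their bound and -0.01 under quantile normalization. Maf, a large Maf factor that limits the self-renewal of macrophages, had 228 and 256 normalised reads in spleen macrophages, against 6.82 and 5.37 in monocytes (5.08 ± 0.61, limma, adjusted p = 9.45e-06). Pparg, a lipid-sensing nuclear receptor needed for red pulp and alveolar macrophages, had 144 and 130 in spleen macrophages, against 9.38 and 1.53 in monocytes (4.71 ± 0.72, limma, adjusted p = 0.000107; 0.0512 with the spread of the 4 libraries alone). Spi1, encoding PU.1, had 235 and 222 in spleen macrophages, against 286 and 387 in monocytes, and did not pass (-0.54 ± 0.26, limma, adjusted p = 0.163), in contrast to its relative Spic. Irf8, needed for monocyte lineages, had 757 and 707 in spleen macrophages, against 390 and 338 in monocytes, and did not pass (1.01 ± 0.42, limma, adjusted p = 0.106).

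Among the factors that fell, Nfe2, known from megakaryocytes and red cell precursors, had 59.8 and 70.1 normalised reads in spleen macrophages, against 691 and 838 in monocytes (-3.53 ± 0.44, limma, adjusted p = 1.24e-05). Klf4, required for inflammatory monocytes, had 54.8 and 84.7 in spleen macrophages, against 823 and 457 in monocytes (-3.15 ± 0.48, limma, adjusted p = 0.000104). Klf2, a quiescence factor of leukocytes and endothelium, had 40.9 and 65.7 in spleen macrophages, against 201 and 278 in monocytes (-2.16 ± 0.34, limma, adjusted p = 0.00013). The C/EBP genes Cebpa and Cebpd fell by 1.63 and 1.76 on the log2 scale, whereas Cebpe, the granulocyte member, had 13.95 and 33.6 in spleen macrophages, against 78.4 and 27.6 in monocytes, and overlapped. The inhibitors of DNA binding also went apart, since Id2 rose by 2.14 on the log2 scale and Id1 fell by 2.78, a call lost without monocytes replicate 2 (limma, adjusted p = 0.0744).

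Antimicrobial granule and oxidase genes were lower in spleen macrophages. Of 15 genes for the phagocyte NADPH oxidase and granule enzymes, 0 rose, 10 fell and 5 did not pass, with a median of -2.64. Lyz2, the main lysozyme of myeloid cells, had 412 and 634 normalised reads in spleen macrophages, against 11974 and 10566 in monocytes (-4.46 ± 0.29, limma, adjusted p = 5.84e-09), and Lyz1, its near copy, had 42.4 and 79.6 in spleen macrophages, against 1543 and 1515 in monocytes (-4.69 ± 0.28, limma, adjusted p = 2.69e-09). Reads of the 2 lysozyme genes may be shared between them. Prtn3, proteinase 3, had 4.98 and 24.8 in spleen macrophages, against 514 and 792 in monocytes (-5.67 ± 1.02, limma, adjusted p = 0.000513), and Elane, neutrophil elastase, had 252 and 298 in spleen macrophages, against 349 and 497 in monocytes, and did not pass (-0.60 ± 0.47, limma, adjusted p = 0.43). Alox5ap, the activator of leukotriene synthesis, had 48.8 and 67.2 in spleen macrophages, against 1032 and 966 in monocytes (-4.10 ± 0.35, limma, adjusted p = 1.76e-07). The oxidase subunits did not fall alike. Ncf4, the p40phox subunit, had 42.9 and 68.7 in spleen macrophages, against 330 and 442 in monocytes (-2.79 ± 0.33, limma, adjusted p = 7.53e-06), whereas Cyba, the p22phox subunit, had 2008 and 1874 in spleen macrophages, against 1813 and 2056 in monocytes, and did not pass (0.01 ± 0.30, limma, adjusted p = 1).

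Transcripts of neutrophils and granulocyte progenitors were present in both groups. Among 15 neutrophil markers 1 fell and the other 14 did not pass, with a median of 0.38, and their sum was 1802 and 3284 normalised reads in spleen macrophages, against 2462 and 1749 in monocytes. The groups overlapped in this sum, as they did in Ltf, lactoferrin, with 297 and 519 in spleen macrophages, against 412 and 220 in monocytes. The member that fell was Cd177, with 13.4 and 28.5 in spleen macrophages, against 95.8 and 101 in monocytes (-2.27 ± 0.76, limma, adjusted p = 0.0415), and the call was lost without any 1 of the 4 libraries (limma, adjusted p 0.0682 to 0.254). Markers of granulocyte and monocyte progenitors summed to 1384 and 1542 in spleen macrophages, against 1851 and 2220 in monocytes, with 0 rising, 2 falling and 6 of 8 not passing. The 2 that fell were Prtn3 and Ctsg, cathepsin G, which the granule list also holds, and the Ctsg call was lost without spleen replicate 1 (limma, adjusted p = 0.0525). The called share was 25% of the progenitor list and 6.67% of the neutrophil list, against 19.0% of all genes tested. The part of progenitor RNA in the granule values was not tested.

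**Figure D4:**
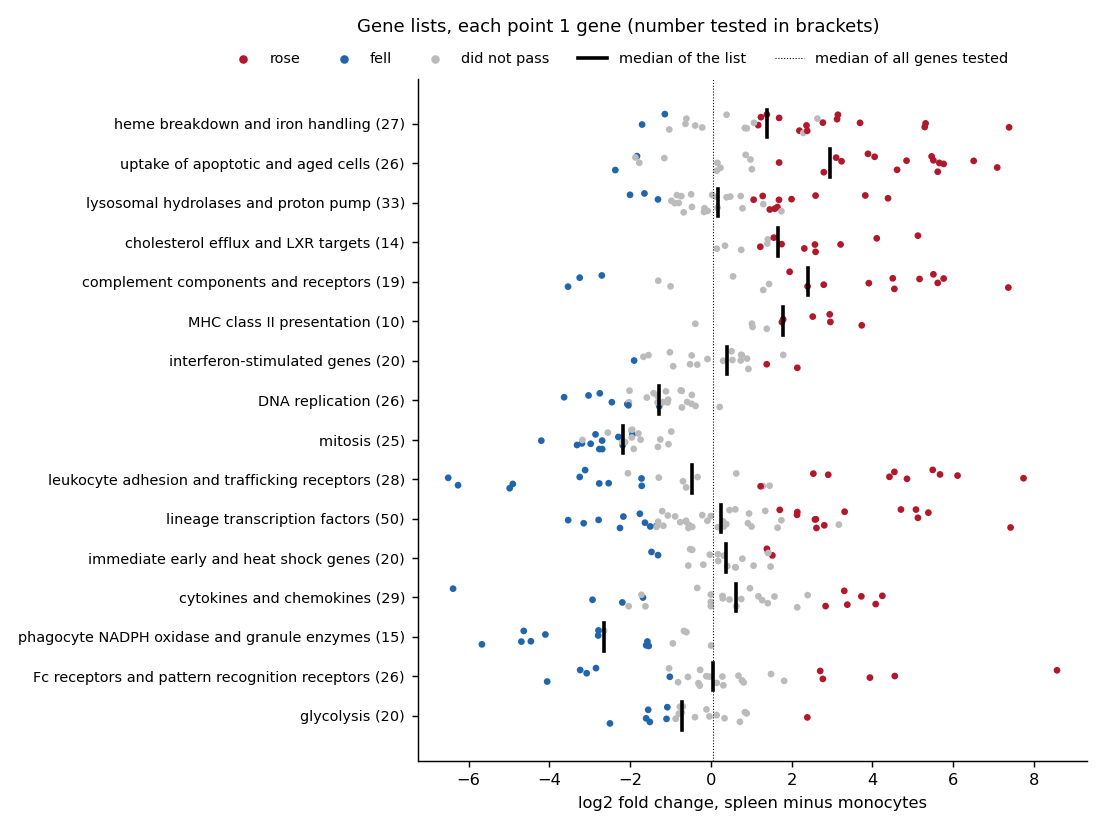
Log2 fold change, spleen minus monocytes, of every tested member of 16 gene lists, 1 list a row; red points rose, blue points fell, grey points did not pass, black bars are list medians and the dotted line is the median of all genes, 0.06. The medians of the uptake, complement, MHC class II and cholesterol lists lie right of the line, those of the oxidase and granule, mitosis and DNA replication lists lie left of it, and the adhesion receptors spread to both sides.

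Most MHC class II genes were higher in spleen macrophages, with wide spread between libraries. Of 10 genes, 6 rose, 0 fell and 4 did not pass, with a median of 1.78. H2-Aa, an alpha chain of the class II molecule, had 929 and 1753 normalised reads in spleen macrophages, against 256 and 104 in monocytes (2.96 ± 0.43, limma, adjusted p = 6.2e-05), and Cd74, the invariant chain, had 1885 and 3550 in spleen macrophages, against 620 and 325 in monocytes (2.52 ± 0.40, limma, adjusted p = 0.000174). Ciita, the master regulator of class II genes, had 77.7 and 145 in spleen macrophages, against 11.9 and 3.84 in monocytes (3.74 ± 0.52, limma, adjusted p = 4.08e-05). In all 3 genes spleen replicate 2 was above spleen replicate 1 and monocytes replicate 1 above monocytes replicate 2, without overlap between groups. H2-DMa, a chain of the peptide-loading factor, had 197 and 280 in spleen macrophages, against 269 and 351 in monocytes, and did not pass (-0.38 ± 0.40, limma, adjusted p = 0.577). When the spread was estimated from the 4 libraries alone, 1 of the 10 genes was called, and H2-Aa, Cd74 and Ciita had adjusted p-values of 0.0725, 0.0699 and 0.0553 in limma.

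Most B cell transcripts were also higher in spleen macrophages. Of 13 B cell and plasma cell markers tested, 11 rose, 0 fell and 2 did not pass, with a median of 3.64, and 5 to 7 rose when 1 library was left out, the lowest without monocytes replicate 1 or spleen replicate 2. Their sum was 502 and 681 normalised reads in spleen macrophages, against 56.7 and 62.0 in monocytes, where 7 of 15 listed markers were at 0. Ms4a1, the B cell antigen CD20, had 32.9 and 30.7 in spleen macrophages and was listed at 0 in both monocyte libraries (limma, adjusted p = 0.00131), and Mzb1, of plasma cells, had 46.8 and 73.0 in spleen macrophages and was likewise at 0. Jchain, the joining chain of secreted antibodies, had 73.8 and 112 in spleen macrophages, against 2.56 and 0 in monocytes (5.52 ± 0.87, limma, adjusted p = 0.000155). T and NK cell markers summed to 108 and 137 in spleen macrophages, against 22.2 and 10.7 in monocytes, with 4 of 10 rising and 6 not passing, but 1 rising without monocytes replicate 1, monocytes replicate 2 or spleen replicate 2. Cd4 among them had 30.9 and 43.8 in spleen macrophages, against 0 and 0.767 in monocytes (4.72 ± 1.03, limma, adjusted p = 0.00271; 0.0537 within experiment 2). Dendritic cell markers summed to 51.8 and 57.0 in spleen macrophages, against 51.1 and 47.6 in monocytes, with 2 of 8 rising, 1 falling and 5 not passing, and 0 rising without monocytes replicate 1 or spleen replicate 2. Of that list Zbtb46 had 16.9 and 20.5 in spleen macrophages and was at 0 in monocytes (limma, adjusted p = 0.00712, but 0.0501 to 0.0563 without monocytes replicate 1, monocytes replicate 2 or spleen replicate 2), and Cd209a was at 0 in spleen macrophages and had 26.4 and 17.6 in monocytes. Platelet markers gave 103 and 61.4 in spleen macrophages, against 17.1 and 46.8 in monocytes, and 0 of 6 passed in limma, with 3 at an unadjusted p under 0.05, all higher in spleen macrophages, and 1 passed without monocytes replicate 2. The called shares were 84.6% of the B cell list, 40% of the T and NK cell list and 37.5% of the dendritic cell list. Over all genes tested that share was 19.0%. The part of B cell RNA in the class II values was not tested.

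**Figure D5:**
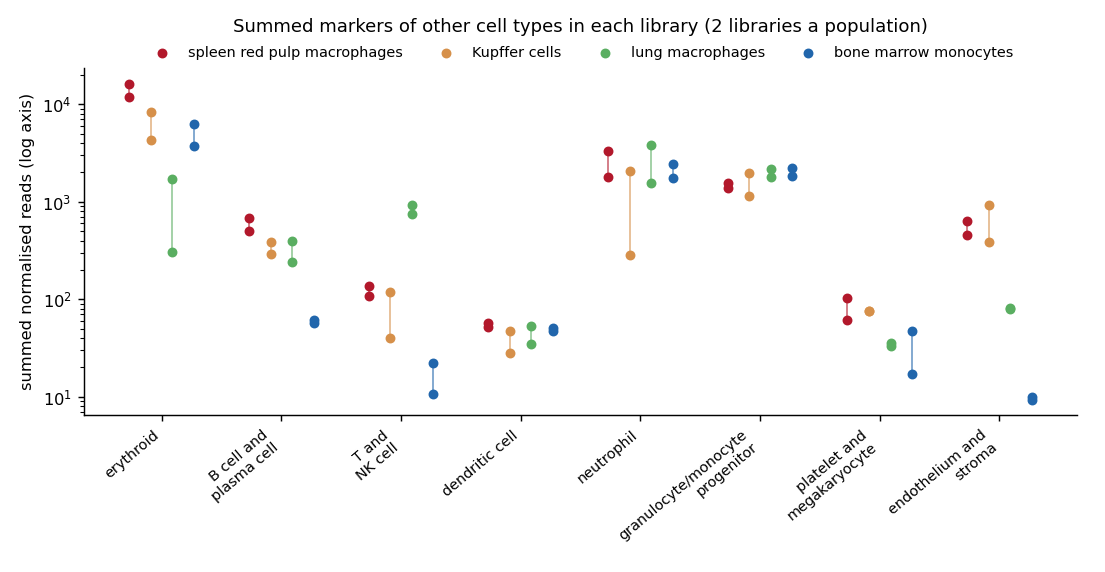
Summed normalised reads on a log axis of 8 marker lists of other cell types, in spleen (red), Kupffer (orange), lung (green) and monocyte (blue) libraries, 2 points each. Erythroid, B cell, T and NK cell and endothelial sums are higher in both spleen libraries than in both monocyte libraries, the neutrophil sums overlap, and the dendritic cell sums lie within 47.6 and 57.0 in those 4 libraries.

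Cell division genes leaned lower in spleen macrophages than in marrow monocytes, though most calls rested on few libraries. The called share was 44% of the mitosis list and 26.9% of the DNA replication list, against 19.0% of all genes tested. Of 25 mitosis genes, 0 rose, 11 fell and 14 did not pass, with a median of -2.18, and every member had a fold change below 0. Without monocytes replicate 2 only 1 fell, without spleen replicate 2 only 2, and without spleen replicate 1 or monocytes replicate 1 there were 6. Ccnb2, cyclin B2, had 30.1 and 21.9 normalised reads in spleen macrophages, against 191 and 231 in monocytes (-2.98 ± 0.70, limma, adjusted p = 0.00467), with adjusted p-values of 0.0527 without monocytes replicate 2 and 0.053 without spleen replicate 2. Cdc20, an activator of the anaphase-promoting complex, had 3.99 and 0 in spleen macrophages, against 29.8 and 60.2 in monocytes (-4.20 ± 0.79, limma, adjusted p = 0.00077; 0.0901 with the spread of the 4 libraries alone). Mki67, the Ki-67 antigen, had 50.7 and 51.6 in spleen macrophages, against 85.1 and 178 in monocytes, and did not pass (-1.25 ± 0.58, limma, adjusted p = 0.147). Of 26 DNA replication genes, 0 rose, 7 fell and 19 did not pass, with a median of -1.28, and 3 to 4 fell when 1 library was left out. Mcm5, of the replicative helicase, had 57.8 and 78.9 in spleen macrophages, against 302 and 272 in monocytes (-2.07 ± 0.48, limma, adjusted p = 0.00435; 0.0512 without spleen replicate 1), while Mcm7 of the same helicase had 99.7 and 130 in spleen macrophages, against 142 and 248 in monocytes, and did not pass (-0.72 ± 0.63, limma, adjusted p = 0.499).

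Glycolysis genes leaned lower. Of 20, 1 rose, 6 fell and 13 did not pass, with a median of -0.71. Thus 35% were called, against 19.0% of all genes tested. Pkm, pyruvate kinase, had 472 and 464 normalised reads in spleen macrophages, against 1167 and 1522 in monocytes (-1.51 ± 0.31, limma, adjusted p = 0.00183), and Gpi1, glucose phosphate isomerase, had 302 and 271 in spleen macrophages, against 576 and 653 in monocytes (-1.10 ± 0.25, limma, adjusted p = 0.00408). Phosphofructokinase genes went apart, since Pfkp, the platelet form, had 6.98 and 5.84 in spleen macrophages, against 45.2 and 37.6 in monocytes (-2.50 ± 0.58, limma, adjusted p = 0.00452), and Pfkm, the muscle form, had 5.98 and 7.30 in spleen macrophages, against 0.852 and 0 in monocytes. The Pfkm call was lost without monocytes replicate 2, spleen replicate 1 or spleen replicate 2 (limma, adjusted p 0.0657 to 0.184). Ldha, lactate dehydrogenase A, had 233 and 237 in spleen macrophages, against 223 and 259 in monocytes, and overlapped.

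Receptors for microbes and antibodies moved in both directions. Of 26 Fc and pattern recognition receptors, 5 rose, 5 fell and 16 did not pass, with a median of 0.06, the same as that of all genes, and -0.13 under quantile normalization. These counts were unstable, with 3 rising and 2 falling without monocytes replicate 1, 3 rising without monocytes replicate 2, 2 falling without either spleen replicate, and 3 rising and 1 falling with the spread of the 4 libraries alone. Fcgr4, an activating receptor for IgG, had 192 and 225 normalised reads in spleen macrophages, against 11.1 and 5.37 in monocytes (4.56 ± 0.52, limma, adjusted p = 5.06e-06), and Fcgr2b, the inhibitory one, had 5.98 and 0 in spleen macrophages, against 40.9 and 50.3 in monocytes (-4.05 ± 0.63, limma, adjusted p = 0.000129; 0.112 with the spread of the 4 libraries alone). Fcgr3, another activating receptor, had 967 and 657 in spleen macrophages, against 860 and 772 in monocytes, and did not pass (-0.03 ± 0.27, limma, adjusted p = 0.985). The lectin receptors Clec4n and Clec7a moved in opposite directions: dectin-2 rose as given above, and Clec7a, dectin-1, a receptor for beta-glucan, had 38.9 and 21.9 in spleen macrophages, against 269 and 241 in monocytes (-3.07 ± 0.30, limma, adjusted p = 8.47e-07). Cd14, a co-receptor for lipopolysaccharide, had 234 and 226 in spleen macrophages, against 49.4 and 21.5 in monocytes (2.78 ± 0.33, limma, adjusted p = 6.94e-06; just short of the threshold with the spread of the 4 libraries alone).

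Cytokine and chemokine genes moved in both directions, and most did not pass. Of 29, 6 rose, 4 fell and 19 did not pass, with a median of 0.63. Il18 had 384 and 254 normalised reads in spleen macrophages, against 26.4 and 19.2 in monocytes (3.73 ± 0.42, limma, adjusted p = 3.61e-06), and Il1b had 72.8 and 124 in spleen macrophages, against 2.56 and 7.67 in monocytes (4.08 ± 0.66, limma, adjusted p = 0.000197). Il1a had 7.97 and 5.84 in spleen macrophages and was listed at 0 in monocytes. Il1rn, the receptor antagonist, had 6.98 and 2.92 in spleen macrophages, against 23.9 and 12.3 in monocytes (-1.68 ± 0.51, limma, adjusted p = 0.0262), a call lost without monocytes replicate 1 (adjusted p = 0.241) or spleen replicate 2 (adjusted p = 0.248). Ccl24, an eotaxin, had 20.9 and 19.0 in spleen macrophages and was at 0 in both monocyte libraries (limma, adjusted p = 0.000256). Ccl6 had 140 and 162 in spleen macrophages, against 720 and 663 in monocytes (-2.19 ± 0.34, limma, adjusted p = 0.000126), and Ccl3 had 1.99 and 1.46 in spleen macrophages, against 29.8 and 13.8 in monocytes (-2.93 ± 0.51, limma, adjusted p = 0.000424; 0.0632 with the spread of the 4 libraries alone). Tgfb1 had 526 and 517 in spleen macrophages, against 438 and 411 in monocytes, and did not pass (0.30 ± 0.28, limma, adjusted p = 0.524).

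Interferon and stress genes were called about as often as genes in general, 3 of 20 and 4 of 20 against 19.0%. The 20 interferon-stimulated genes gave 2 that rose and 1 that fell, with a median of 0.41. Only 1 rose without monocytes replicate 1, spleen replicate 1 or spleen replicate 2, and 2 fell without monocytes replicate 2. Irf7, a regulator of the interferon response, had 910 and 974 normalised reads in spleen macrophages, against 776 and 749 in monocytes, and did not pass (0.30 ± 0.31, limma, adjusted p = 0.563). Oasl2 had 23.9 and 26.3 in spleen macrophages, against 107 and 87.5 in monocytes (-1.90 ± 0.40, limma, adjusted p = 0.00193). Of 20 immediate early and heat shock genes, which can respond to cell isolation, 2 rose, 2 fell and 16 did not pass, with a median of 0.36, or 0.25 with members at 0 in 1 group set at their bound. The calls of both that fell were lost without any 1 of the 4 libraries, 1 rose without either monocyte library, and 0 rose without spleen replicate 2. Fos had 128 and 237 in spleen macrophages, against 280 and 235 in monocytes, and the groups overlapped.

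A direct comparison with Kupffer cells of the liver and lung macrophages of the same experiment was made for the genes above, and a difference from the mean of both populations can rest on 1 of them. Against the mean of those 2 populations 690 genes rose (5.74%) and 585 fell (4.87%) in spleen macrophages, 10.6% of the 12014 genes in all. The sum of 1275 became 534 without spleen replicate 1, 504 without spleen replicate 2 and 836 with the spread taken from experiment 2 alone. Itgad had 260 and 295 normalised reads in spleen macrophages, against 8.32 and 3.03 in Kupffer cells, and against 0.316 and 2.77 in lung macrophages (6.18 ± 0.64, limma, adjusted p = 4.87e-06), and Sned1 had 132 and 171 in spleen macrophages, against 2.08 and 0 in Kupffer cells, while it was listed at 0 in lung macrophages. Vcam1 had 1571 and 1183 in spleen macrophages, against 147 and 155 in Kupffer cells, and against 5.06 and 2.21 in lung macrophages (5.70 ± 0.43, limma, adjusted p = 1.58e-07). Spic had 692 and 651 in spleen macrophages, against 152 and 167 in Kupffer cells, and against 2.53 and 1.11 in lung macrophages (4.98 ± 0.60, limma, adjusted p = 2.56e-05). In each of these genes both spleen libraries were above all 4 others, with Kupffer cells second for Vcam1 and Spic. Over all 9 populations, the highest library outside the spleen was a Kupffer library for Spic, Vcam1, Itgad and Treml4, and the 4 intestinal, brain and peritoneal populations had 0 to 58.9 normalised reads of Vcam1 and 0 to 8.14 of Spic. For Itgad that Kupffer value, 8.32, stood beside 8.27 in a neutrophil library.

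Of the 27 heme and iron genes 8 rose and 2 fell against the mean of Kupffer cells and lung macrophages, and 17 did not pass. Hmox1 had 4000 and 4594 normalised reads in spleen macrophages, against 1033 and 551 in Kupffer cells, and against 148 and 126 in lung macrophages (3.73 ± 0.31, limma, adjusted p = 4.29e-07). Slc40a1 had 1037 and 793 in spleen macrophages, against 962 and 1112 in Kupffer cells, and against 4.42 and 4.43 in lung macrophages (3.58 ± 0.52, limma, adjusted p = 0.000167). The spleen and Kupffer values of Slc40a1 overlapped and the lung values were low, as was the case for Cd163, with 338 and 228 in spleen macrophages, against 410 and 297 in Kupffer cells, and against 5.69 and 0 in lung macrophages. Nfe2l2 had 12.96 and 13.15 in spleen macrophages, against 62.4 and 147 in Kupffer cells, and against 66.4 and 135 in lung macrophages (-2.77 ± 0.34, limma, adjusted p = 3.16e-05), so that it was lower in spleen macrophages than in either of the other 2 macrophage populations and in monocytes. Ferritin was not highest in spleen, since Fth1 had 3949 and 3587 there, against 5589 and 2522 in Kupffer cells, and against 10352 and 9258 in lung macrophages. In this comparison all 13 erythroid markers rose in spleen macrophages, with a median of 4.36, and their part in these values was not tested.

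Ccr2 and Ly6c2 were low in all 3 macrophage populations. Ccr2 had 6.98 and 5.84 normalised reads in spleen macrophages, against 6.24 and 9.08 in Kupffer cells, and against 7.59 and 4.43 in lung macrophages, and did not pass (-0.05 ± 0.42, limma, adjusted p = 0.976). Ly6c2 had 36.9 and 73.8 in spleen macrophages, against 30.5 and 17.7 in Kupffer cells, and against 26.9 and 81.9 in lung macrophages, and overlapped. Galnt9 was listed at 0 in all 6 libraries. Of the 7 monocyte markers 0 passed in this comparison in limma, with 1 at an unadjusted p under 0.05. Cx3cr1 rose without lung replicate 1 (limma, adjusted p = 0.00323) or Kupffer replicate 2 (0.0448), F13a1 rose without Kupffer replicate 1 (0.0363), and a p that misses the threshold does not show that they were equal. Of 18 genes on the longer monocyte list, 2 rose, 1 fell and 15 did not pass, with a median of -0.13.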

How the data were processed

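Messenger RNA of sorted mouse cells was measured by sequencing in 18 libraries of 9 populations. The values are a signal, normalised reads per RefSeq transcript, deposited by the authors as 1 table of all libraries. TopHat and the mouse build mm9 are named in the submitters' processing notes; the version of TopHat and the counting, annotation and normalization steps are not stated there. Within a library 86.6% to 88.9% of values above 0 were whole multiples of 1 step within 0.01 read, too few to treat as counts, so a count test was not used and the test was limma. The step gave the reads in genes and the 3-read limits, which cover counting error only.

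Of 20814 transcripts, 20372 (97.9%) matched a RefSeq symbol, giving 16222 genes, each represented by its transcript with the highest mean. Genes reaching 5.53 normalised reads in at least 2 of the 18 libraries were tested (12014, of which 1820 were below that value in all 4 libraries described here). Values were tested as log2(value + 1.11) by limma (version 3.58.1, R 4.3.3) with variances moderated along a mean-variance trend, in 1 model of 9 populations. The spread was therefore pooled over all populations. Populations, not replicate numbers, entered the model, since the labels do not say that equal numbers pair libraries. The contrasts were spleen macrophages against monocytes, and against the mean of Kupffer and lung macrophages, all of experiment 2.

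Named genes were the 15 highest and 15 lowest called genes with a name, up to 6 called members of each list in each direction and up to 4 that did not pass, the cell type markers and the called heme and iron genes. Axl, Timd4, Sirpa, Marco, Itga4, Cebpa and Id2 were added after their values were seen. The members, lists and markers were chosen with earlier results of these data known. Alternatives covered the pseudocount, filter, trend, normalization, transcript choice, call rule, libraries in the model, a replicate block and each library left out. The code was tested on simulated data. Figures were drawn with matplotlib 3.10.9. A few genes that the rule names are not reported here.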

Additional observations from a re-analysis of the deposited data

Results flagged for a closer look

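The genes below differed between spleen macrophages and the mean of Kupffer cells and lung macrophages when that difference was tested directly, so their contrasts with monocytes differed between these macrophage populations. Of the 53 genes examined, 22 rose, 6 fell and 25 did not pass in limma. Values are log2 differences, spleen minus the mean of the other 2 populations.

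Among regulators, adhesion molecules and receptors, the differences were 6.71 for Sned1, 6.18 for Itgad, 5.70 for Vcam1, 5.30 for Gfra2, 5.00 for Asb2, 4.98 for Spic, 4.87 for Mrap, 4.57 for Epb41l3, a membrane skeleton protein, and 2.95 for Crip2, a LIM-domain protein. Kupffer cells had intermediate values of most of these genes, such as 102 and 153 normalised reads of Asb2, which had 877 and 802 in spleen macrophages. The Sned1 value depends on the pseudocount, since its Kupffer and lung values lay within the limit of 3 reads. C6 at 3.46 and Cd163 at 3.17 had similar values in spleen and Kupffer libraries and low ones in lung, and Treml4, a receptor of the TREM family, gave 2.87. Cd5l, a secreted scavenger-receptor protein, gave 2.79 against the mean but was lower in spleen macrophages, at 757 and 931, than in Kupffer cells, at 3493 and 2662.

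Among heme and iron genes the differences were 3.73 for Hmox1, 3.58 for Slc40a1, 3.18 for Slc11a1, 1.71 for Blvrb, 1.63 for Slc48a1, 1.09 for Trf and -2.77 for Nfe2l2. For Slc40a1, Slc11a1 and Blvrb the Kupffer values were close to or overlapped those of spleen and the lung values were low: Slc11a1 had 1485 and 1340 normalised reads in spleen macrophages, against 1168 and 1243 in Kupffer libraries and 29.7 and 12.2 in lung libraries, and Blvrb had 1260 and 992 in spleen macrophages, against 1445 and 607 in Kupffer libraries and 155 and 98.5 in lung libraries. Ptgis at 3.41, Clec4n at 1.36 and Mertk at 1.32 were also higher. Lower in spleen macrophages were B3gnt8, a glycosyltransferase, at -4.08, Sema4a at -3.18, Ccl9 at -2.89, Padi2, listed at 0 in both spleen libraries so that its value depends on the pseudocount, at -2.36, and Fn1 at -1.89, for each of which lung macrophages held more than spleen macrophages, such as 123 and 157 normalised reads of Fn1, against 8.97 and 17.5.

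Of these 28 calls 12 were lost under at least 1 alternative. Without spleen replicate 1 the adjusted p in limma was 0.0664 for Blvrb, 0.0668 for Cd163, 0.0939 for Ccl9, 0.0851 for Fn1, 0.0516 for Sema4a, 0.0666 for Mertk, 0.124 for Ptgis, 0.147 for Cd5l, 0.198 for Clec4n, 0.184 for Padi2, 0.116 for Slc48a1 and 0.110 for Trf. Without spleen replicate 2 it was 0.234 for Cd5l, 0.267 for Clec4n, 0.120 for Mertk, 0.222 for Padi2, 0.131 for Ptgis, 0.210 for Slc48a1 and 0.162 for Trf.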

How the results depend on the processing

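The count of genes called between spleen macrophages and monocytes, 2277, lay between 1559 and 2425 under the alternatives of pseudocount, filter, trend, scaling, transcript choice, model and call rule. Leaving out 1 library gave 1425 to 1723: 1473 without monocytes replicate 1, 1425 without monocytes replicate 2 and 1429 without spleen replicate 2. In those fits the lone sample is assumed to vary like the other groups. Against Kupffer cells and lung macrophages the count of 1275 became 836 in experiment 2 alone, and 504 to 1352 when 1 library was left out, the lowest without spleen replicate 2 and 534 without spleen replicate 1. The members of the gene lists gave 220 called genes, and 155 to 178 when 1 library was left out, 155 of them without spleen replicate 2.

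Replicate numbers 1 and 2 are shared by the groups, and the labels do not say whether equal numbers pair libraries. The deviations of same-numbered libraries had a correlation of 0.004 over genes. That value rests on a single difference in each group, so it cannot decide whether they were paired. With the replicate block 2219 genes were called, and 215 in the lists, and among named genes the calls of Siglec1 and Gins1 were lost (limma, adjusted p = 0.0519 and 0.0503). No called fold change of a named gene changed sign under any alternative; of 182 called named genes 111 kept their call under every alternative. Reads in genes of 588858 in spleen replicate 2 limit what low values can show.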
